A study of Mus musculus with 4 samples.

Results

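The genes described here are Slurp1, Serpina3n, Smoc2 and Crhbp, which encode proteins that cells release. They are 4 of the 48 genes in a table of expression values from HT22 cells, an immortalised line derived from mouse hippocampal neurons. The 48 genes had been selected by the authors on the difference between the same libraries that are compared below, and the 4 members were picked from them by the kind of protein they encode. The contrast between groups is therefore given as a description, with no test. All cells carried the genotype label WT. In the mimic group (2 libraries), miR-712-3p mimic, a synthetic RNA meant to raise this microRNA, stood with transfection reagent for 15 min before the cells were cultured in the mixture for 24 h. The control cells (2 libraries) were given medium with neither reagent nor mimic at that time, so the mimic and the act of transfection cannot be told apart. All cells then had fresh medium for a further 24 h before RNA was taken. The treatment label of mimic replicate 2 reads miR-712-4p, and the control columns are headed NC, an abbreviation that the labels leave unexplained. The methods speak in general of independent repeats, but nothing ties these libraries to separate cultures, so the spread between replicates may be technical.

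Secreted proteins are made at the endoplasmic reticulum, to which a hydrophobic signal peptide at the start of the chain directs the ribosome, and they act outside the cell as ligands, inhibitors, matrix components or carriers. Slurp1 is a small cysteine-rich protein of the Ly6/uPAR family that modulates nicotinic acetylcholine receptors and is best known from skin. Serpina3n is a serpin, an inhibitor of serine proteases, and its transcript is widely used as a marker of reactive astrocytes in mouse brain. Smoc2 is a calcium-binding matricellular protein of the SPARC family, which act between cells and matrix. Crhbp binds corticotropin releasing hormone and urocortin and so limits their access to receptors, and in brain it is made by subsets of neurons.

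The first 25 codons of each coding sequence are shown because they encode the part of the protein that holds the signal peptide. They were read from the GENCODE M21 transcript (GRCm38) with the longest coding sequence of each gene, 5′ to 3′ on the coding strand. Capitals mark a T in the middle of a codon from codon 2 onwards, the codons of the hydrophobic residues phenylalanine, leucine, isoleucine, methionine and valine.
Slurp1: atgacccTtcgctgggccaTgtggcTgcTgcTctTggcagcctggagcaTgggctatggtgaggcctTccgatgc
Serpina3n: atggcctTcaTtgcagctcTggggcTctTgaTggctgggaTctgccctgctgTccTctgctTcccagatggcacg
Smoc2: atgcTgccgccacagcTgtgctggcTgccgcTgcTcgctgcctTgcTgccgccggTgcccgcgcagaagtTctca
Crhbp: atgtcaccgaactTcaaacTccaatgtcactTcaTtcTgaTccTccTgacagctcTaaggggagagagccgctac

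Such codons made up 33.3% of codons 2 to 25 in Slurp1, 41.7% in Serpina3n, 37.5% in Smoc2 and 37.5% in Crhbp, against a median of 25% over 21609 protein-coding genes. At least 33.3% was reached by 36.8% of those genes, and by 11 of the 29 listed genes among them. Besides the members, these were the 7 genes Cacng1, Gja4, Hook1, Pcdh1, Qrich2, Srp54b and Zan. The members are thus above the middle of all genes in this measure, without standing apart from them. Cysteine codons (TGT or TGC) had their highest share among the members in Slurp1: it had 10 in 110 codons, or 9.09%, a share higher than in 98.3% of genes. Smoc2 had 23 in 458 codons (5.02%, higher than in 92.2% of genes) and Crhbp 11 in 329 codons (3.34%, higher than in 77.8%). Serpina3n had 3 in 418 codons (0.718%, higher than in 8.91%), against a median of 2.13% over all genes.

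With the mimic, Slurp1, Serpina3n and Smoc2 were higher and Crhbp was lower than in control cells. The 4 genes together took 230 reads of 135364019 in the 4 libraries. Values are given as FPKM, which sets reads against exon length and library total, as reads, or as normalised counts, which are reads divided by a size factor for each library. Both mimic libraries lay above both control libraries for 3 of the 4 members, where 54.2% of the 48 listed genes did so. They lay below both for the remaining member, as in 39.6% of the listed genes. The table had been selected on this contrast, so nothing is read from these shares. None of the 48 listed genes had an adjusted p under 0.05 in the authors' own comparison of groups with DESeq2. In bulk RNA, fewer expressing cells and less RNA per cell cannot be told apart.

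**Figure D1:**
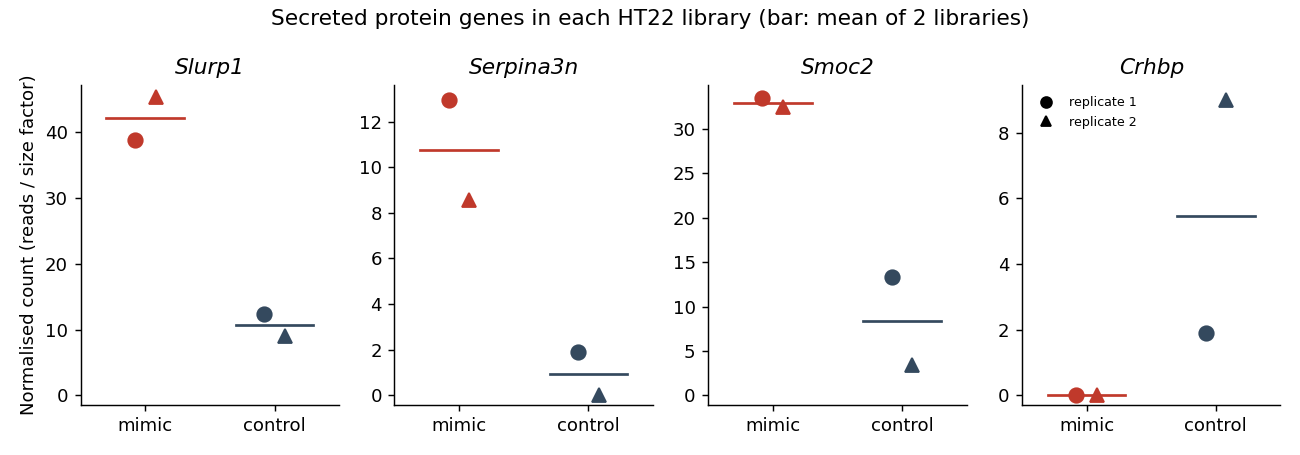
Normalised counts (reads divided by size factor, vertical axis) of Slurp1, Serpina3n, Smoc2 and Crhbp in the mimic and control libraries, where circles are replicate 1, triangles replicate 2 and bars the mean of 2 libraries. Mimic libraries sit above control libraries for Slurp1, Serpina3n and Smoc2, while both mimic libraries of Crhbp are at 0, and each panel has its own axis.

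Slurp1, the Ly6-family ligand, had the highest level and the narrowest relative spread of the control libraries among the members. It was at 0.394 and 0.460 FPKM in mimic replicates 1 and 2, from 36 and 53 reads. In control replicates 1 and 2 it was at 0.126 and 0.0913 FPKM, from 13 and 8 reads. The lower mimic library lay well above the higher control library, and the groups did not overlap. The mean of Slurp1 was 42.1 ± 4.59 normalised counts in mimic cells and 10.7 ± 2.41 in control cells (SD, n = 2 each). The ratio of means, mimic over control, was 3.94, and the exact 95% counting interval of the read ratio ran from 2.41 to 6.64. Leaving out any one library kept the ratio between 3.40 and 4.68. These intervals, here and for the other members, treat each read as a separate count and leave out the spread between libraries. Because PCR copies reads of the same molecule, they may be too narrow even for counting error. The genes were selected on this contrast, so an interval that excludes equal levels is no evidence of a difference.

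The position of Slurp1 bears on what those reads measure. The gene (ENSMUSG00000022596) lies on chromosome 15 of GRCm38, 74724318 to 74728034, minus strand, with 2 protein-coding transcripts of 567 and 2859 bases. The deposited FPKM used a union exon length of 2933 bases, while its coding sequence has 330. RefSeq places Slurp1 only at 74726644 to 74728023, so 2337 of the 2933 exon bases (79.7%) lie outside the RefSeq gene. At the 3′ end of the gene, 322 exon bases (74724318 to 74724639) overlap exons of Them6, a thioesterase superfamily gene on the opposite strand, and make up 11% of the exon length. The library protocol names no strand marking, so reads of the overlap cannot be assigned by strand. Of windows of 100 bases in Slurp1 transcripts, 7.67% were also found in Them6 and in no other gene. Where in the gene the reads fall is not given by the table, and the part of Them6 in the Slurp1 values was not tested.

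Serpina3n, the protease inhibitor, was close to the detection limit in control cells. It had 12 and 10 reads in mimic replicates 1 and 2, or 0.187 and 0.123 FPKM. In control replicate 1 it had 2 reads, or 0.0276 FPKM, and in control replicate 2 none, where a count of 0 still allows 3 reads or 0.0487 FPKM. Both mimic libraries were above that limit. The mean of Serpina3n was 10.8 ± 3.11 normalised counts in mimic cells and 0.954 ± 1.35 in control cells (SD, n = 2 each). The read ratio, mimic over control, was 10.2 with an exact 95% counting interval from 2.50 to 89.2, the widest of those with both ends. The ratio of means, 11.3, moved to 5.64 without control replicate 2. Without control replicate 1 no control read was left. With the control group then set to the floor of 3 reads in all and the mimic reads taken as counted, the mimic was 3.11-fold higher.

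Serpina3n (ENSMUSG00000021091) lies on chromosome 12, 104406729 to 104414329, plus strand, with 1 annotated transcript of 2064 bases in 5 exons. It belongs to a cluster of related serpin genes, and 6.90% of its windows of 50 bases were found unchanged in other members of the cluster, such as Serpina3g, Serpina3m and Serpina3f. Over windows of 100 bases the share was 0.204%. Reads from those stretches are uncertain between the copies, depending on read length, which the sources used here do not give.

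Smoc2, the matricellular protein, had near-equal values in the mimic libraries and differing values in the control libraries. It was at 0.143 and 0.139 FPKM in mimic replicates 1 and 2, from 31 and 38 reads. Control replicates 1 and 2 were at 0.0575 and 0.0144 FPKM, from 14 and 3 reads. The groups did not overlap, and control replicate 2 was the lowest library. The mean of Smoc2 was 33.0 ± 0.673 normalised counts in mimic cells and 8.37 ± 7.06 in control cells (SD, n = 2 each). The ratio of means, mimic over control, was 3.94, and the read ratio of 3.75 had an exact 95% counting interval from 2.18 to 6.81. The size of this ratio rests on the control libraries: it was 9.78 without control replicate 1 and 2.47 without control replicate 2, but 3.89 and 4.00 without mimic replicates 1 and 2.

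Smoc2 (ENSMUSG00000023886) lies on chromosome 17, 14279506 to 14404790, plus strand. It has 7 annotated transcripts, 3 of them protein-coding with a longest of 2832 bases. Its union exon length of 6951 bases is the longest of the members, and 3911 of these bases (56.3%) occur only in transcripts without a coding sequence, among them a retained intron transcript of 3972 bases. Reads in that stretch and reads of the coding transcripts enter the same FPKM. The antisense gene 4930474M22Rik lies within the Smoc2 gene and shares no exon base with it. No window of 50 bases was found in another gene.

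**Figure D2:**
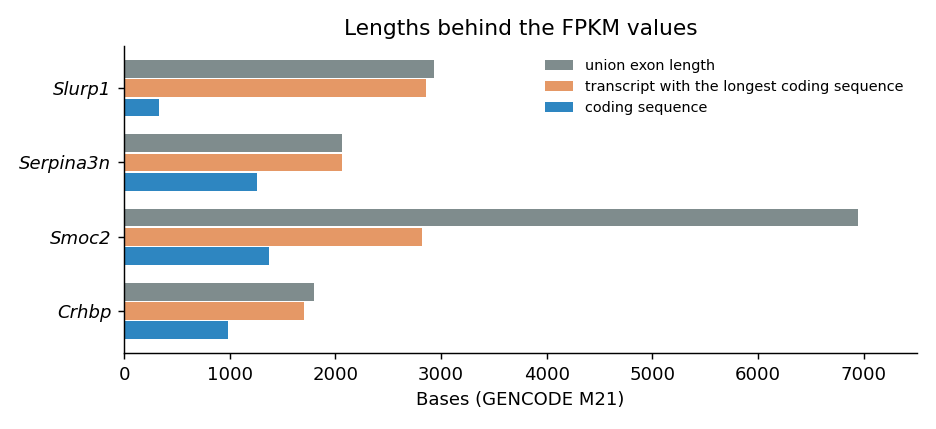
Union exon length used for FPKM, length of the transcript with the longest coding sequence, and length of that coding sequence (horizontal axis, bases in GENCODE M21) for each member. The coding sequence is 330 of 2933 bases in Slurp1, and the Smoc2 union exon length of 6951 bases far exceeds its coding transcript of 2817.

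Crhbp, the hormone-binding protein, was the lower member, and it had the fewest reads of all 48 listed genes. No read was counted in either mimic library. Control replicates 1 and 2 had 2 and 8 reads, or 0.0317 and 0.149 FPKM. A count of 0 allows 3 reads in a library, which would be 0.0535 and 0.0424 FPKM in mimic replicates 1 and 2. Control replicate 1 lay below both of these limits, so a difference from that library was not detectable at this depth. The mean of Crhbp was 0 normalised counts in mimic cells and 5.45 ± 5.01 in control cells (SD, n = 2 each).

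With the mimic group set to a floor of 3 reads in all and the control reads taken as counted, the bound for Crhbp was 3.60-fold lower in mimic cells. The exact 95% lower limit of the control over mimic read ratio, which allows for counting error in both groups, was 2.42. Control replicate 2 carried most of the control reads: without it the mimic group had 0 reads and the control 2, both under the floor, and no fold can be given. The bound was 6.28 without control replicate 1, 2.01 without mimic replicate 1 and 1.59 without mimic replicate 2. Crhbp (ENSMUSG00000021680) lies on chromosome 13, 95431371 to 95444924, minus strand, with transcripts of 1701 and 1779 bases, and no window of 50 bases was found in another gene.

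**Figure D3:**
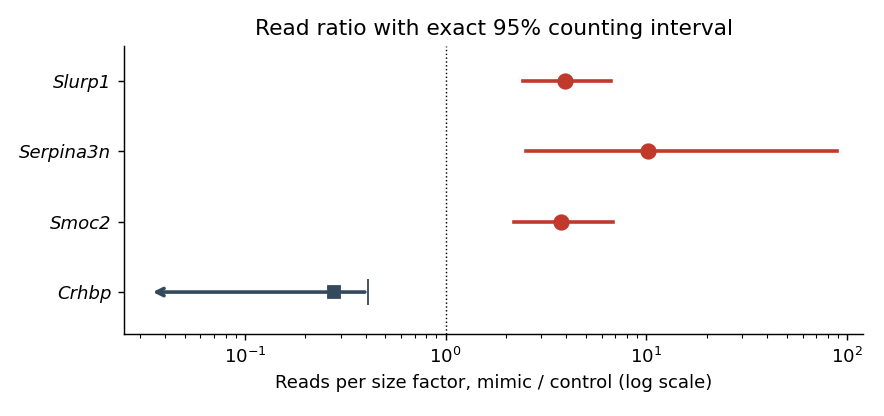
Reads per size factor in mimic over control libraries (horizontal log axis) with exact 95% counting intervals for each member. Points are read ratios of 3.92 for Slurp1, 10.2 for Serpina3n and 3.75 for Smoc2. For Crhbp, with 0 mimic reads, the tick is the inverse of the 2.42 limit, the square the inverse of the 3.60 bound and the arrow an interval with no lower end. The dotted line marks equal levels, and because the genes were selected on this contrast, intervals clear of it are no test of a difference.

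The order of the members by mean FPKM differed between the groups. The members had been selected on this contrast, so the change in order is no separate result. With the mimic, the order of mean FPKM was Slurp1 at 0.427 ± 0.0465, Serpina3n at 0.155 ± 0.0448, Smoc2 at 0.141 ± 0.00286 and Crhbp at 0 (SD, n = 2 each). Serpina3n and Smoc2 overlapped in these libraries and were not separated beyond their spread. Their order also depends on the length used, since 3911 of the 6951 exon bases of Smoc2 occur only in transcripts without a coding sequence. In normalised counts with the mimic, Smoc2 at 33.0 was above Serpina3n at 10.8. In the control, the order was Slurp1 at 0.109 ± 0.0249, Crhbp at 0.0902 ± 0.0828, Smoc2 at 0.0360 ± 0.0304 and Serpina3n at 0.0138 ± 0.0195 FPKM. There each neighbour overlapped the next. Slurp1 lay above Smoc2 and Serpina3n in both control libraries. Crhbp and Serpina3n had 2 reads each in control replicate 1, under the floor, and were not separated there.

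In level, Slurp1 was near the middle of the 48 listed genes and the other members were below it. Over all 4 libraries, Slurp1 averaged 0.268 FPKM and ranked 24 in level, Smoc2 averaged 0.0886 FPKM and ranked 33, Serpina3n averaged 0.0844 FPKM and ranked 34, and Crhbp averaged 0.0451 FPKM and ranked 43. The median of the listed genes was 0.254 FPKM. In reads summed over the libraries, Slurp1 had 110, Smoc2 86, Serpina3n 24 and Crhbp 10, against a median of 62.5. Smoc2 and Serpina3n had similar FPKM from unequal reads because FPKM divides by exon length, which is 6951 bases in Smoc2 and 2064 in Serpina3n. The median log2 ratio of normalised counts, mimic over control with a pseudocount of 1, was 1.88 for the 3 higher members and likewise 1.88 for all 29 higher listed genes.

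**Figure D4:**
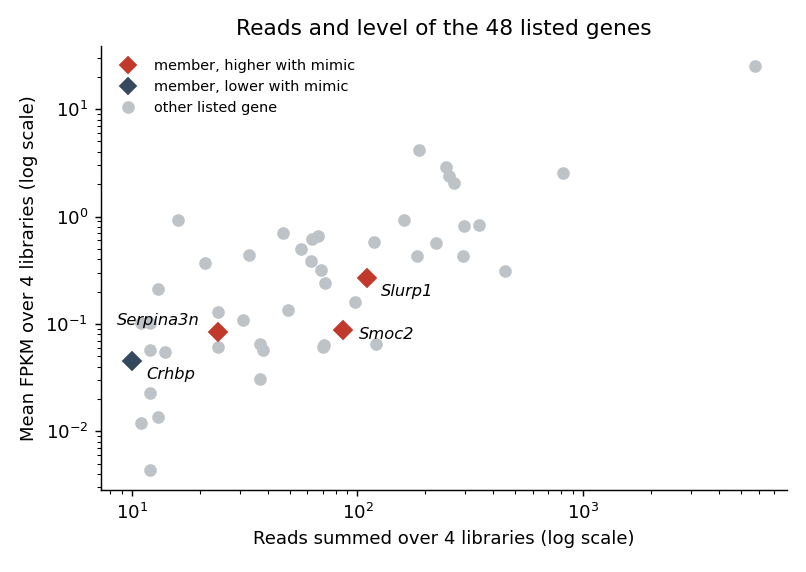
Reads summed over 4 libraries (horizontal log axis) against mean FPKM over 4 libraries (vertical log axis) for the 48 listed genes, with members as diamonds, red where higher and dark blue where lower with the mimic. Crhbp is at the left edge with 10 reads, Serpina3n has 24, and Smoc2 and Slurp1 have 86 and 110.

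The listed genes nearest to each member in pattern were taken by Euclidean distance over the 4 libraries, on log2 normalised counts centred on each gene. Over only 4 libraries, chosen genes with the same direction lie close together by construction, and the distances are a description. Slurp1 was nearest to the beta globin gene Hbb-bs (distance 0.250) and to Atad3aos (0.287). Serpina3n was nearest to Pparg, the nuclear receptor of fat cell formation (0.738), followed by Smoc2 (0.760). Smoc2 was nearest to Trim63, a muscle ubiquitin ligase (0.564), and like Smoc2 this gene was lower in control replicate 2, at 10.1 against 43.9 normalised counts in control replicate 1. Crhbp was nearest to Fam189a1 (0.560), whose control replicates 1 and 2 had 6.68 and 28.1 normalised counts, and then to Qrich2 (1.11), which like Crhbp had no read in the mimic libraries. The median distance over all 1128 pairs of listed genes was 3.04. The 3 higher members lay 0.760 to 1.29 apart, and Crhbp lay 4.60 to 5.71 from them.

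Genes related to the members were looked for among the 48 listed genes. None of 39 other Ly6/uPAR genes and none of 16 nicotinic receptor subunits, the kind of receptor on which Slurp1 acts, was listed. The same held for 39 other serpins and 24 serine proteases, the enzymes that serpins inhibit. Of the SPARC family (7 other genes), of the corticotropin releasing hormone system (9 genes, with the hormone Crh and the receptors Crhr1 and Crhr2) and of secreted glial and acute phase genes (28 genes, with Lcn2 and C3), 0 were listed as well. Of 38 markers of neurons, astrocytes, microglia, oligodendrocytes, fibroblasts, keratinocytes, hepatocytes and endothelium, 0 were listed. The annotation holds 160 of the 162 family genes. Only 29 of 21609 protein-coding genes (0.134%) were listed at all, so a count of 0 is what lists of this size would give at that share, and nothing is read from it. A gene outside the table was not analysed here, so its level is unknown, and neither the neuronal label of HT22 nor the presence of other cell types was checked from these values.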

How the data were processed

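Messenger RNA from 4 HT22 libraries was enriched on oligo(dT) beads and sequenced in pairs, and per the study's methods the authors used HISAT2 for alignment and DESeq2 for the comparison of groups. Counter, build, annotation and tool versions are not stated in these sources. The authors deposited 1 value per library and gene, read here as FPKM, and a mean normalized signal per group. Library columns were matched to samples by group name and replicate number. The deposited fold changes and p-values were used only to find what the table holds: for all 48 genes the log2 fold change exceeded 1 in size and the unadjusted p was under 0.05, while the adjusted p was under 0.05 for 0 genes. The study's methods give an adjusted p under 0.05 as the threshold, so the deposited genes do not meet the stated rule.

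Multiplied by GENCODE M21 union exon length and 1 total per library, FPKM gave whole reads within 0.01 for 44 genes, all members included. The totals were 31147478 and 39292645 for mimic and 35050806 and 29873090 for control replicates 1 and 2, and may count read pairs. Size factors (0.926, 1.17, 1.05 and 0.889 in that order) came from the deposited group means, which also gave the lengths of the other 4 genes. At these depths 1 read in a kilobase is 0.0255 to 0.0335 FPKM. Recovery by annotated length and the interval were tested on simulated data, and recovery by group means was not. The interval was simulated only at higher counts than those of Serpina3n and Crhbp, and with no spread beyond counting error. A planned exact binomial test between replicates is not reported, because the p-values on which the table was selected depend on the same spread. Intervals are Clopper-Pearson. Members and lists were chosen with earlier results of these data known. Named genes were the members, the 2 listed genes nearest to each and any listed gene of the family lists. Cacng1, Gja4, Hook1, Pcdh1, Srp54b and Zan were named after their values were seen. Python 3.11.15, numpy 2.4.6, scipy 1.17.1 and matplotlib 3.10.9 were used. The mature miR-712-3p sequence and proteins were not used here.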

Additional observations from a re-analysis of the deposited data

How the results depend on the processing

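In 39 comparisons of a result with an alternative, none reversed a direction, 28 stayed within the spread between replicates (for the count of members, within 1.5 times) and 11 moved. That spread comes from the same libraries that are left out, so a gene with a wide spread stays within it more easily. The log2 ratio of Smoc2 counted as within its spread of 0.857 although it fell from 1.86 to 1.24 without control replicate 2. The count of 28 is thus no measure of how firm the ratios are. Mimic and control libraries did not overlap for any of the 4 members. Leaving out a library or adding a pseudocount therefore could not reverse a direction, nor could leaving one out lower the count of members. Both mimic libraries of Crhbp had no read, so leaving out either could not move its ratio. The lack of reversals is thus no support for the directions. The log2 ratios of normalised counts, mimic over control with a pseudocount of 1, were 1.88 for Slurp1, 2.59 for Serpina3n, 1.86 for Smoc2 and -2.69 for Crhbp, the last of which depends on the pseudocount because no mimic read was counted. With a pseudocount of 5 they were 1.59 for Slurp1, 1.40 for Serpina3n and -1.06 for Crhbp. On FPKM with a pseudocount of 0.1 they were 1.34, 1.16, 0.83 and -0.93 for Slurp1, Serpina3n, Smoc2 and Crhbp, a pseudocount of the size of the levels themselves. With each library left out in turn, Serpina3n ranged from 2.02 to 3.56, Smoc2 from 1.24 to 2.96 and Crhbp from -3.32 to -1.54. The lowest value of Serpina3n and Smoc2 and the highest of Crhbp came without control replicate 2, and the other ends came without control replicate 1. Of the 4 members with separate groups, 1 (Slurp1) was left at a mean FPKM of at least 0.1 and 3 at 10 or more reads in a library. Scaling by library totals in place of size factors moved none of the 4 ratios beyond the replicate spread. The size factors were nearly proportional to the library totals, so this alternative could hardly move a ratio and is no support for them. No paired analysis was possible because the ratios come from no test and no source says that replicate numbers pair libraries. Depth limits Crhbp and Serpina3n most.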
